A study of Danio rerio with 9 samples.

Results

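To ask which transcripts responded to injection itself, or to a shift of BMP level in either direction, transcript levels in all 6 injected libraries were compared with those in the 3 uninjected libraries. The injected libraries were chosen by their labels alone and make up 6 of the 9 libraries of the series. 3 of them came from wild type TE zebrafish embryos that received 10 pg of mRNA encoding zebrafish Bmp2b (*bmp*-overexpressing), and 3 from embryos that received 100 pg of mRNA encoding zebrafish Chordin (*chd*-overexpressing), both given at the one-cell stage. The 3 remaining libraries came from uninjected siblings. All embryos, uninjected ones included, were dechorionated with Pronase and were frozen when uninjected siblings had reached shield stage at 6.75 hpf, with 10 whole embryos pooled per library. Genes of interest are those whose level moved the same way in both injected groups. The groups received different amounts of different mRNAs and no library came from embryos injected with a control mRNA, so a response to injection and a response to BMP imbalance cannot be told apart. Each library pools all tissues of the embryo, so fewer cells of a type and less RNA per cell cannot be told apart either.

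At shield stage the dorsal organizer has just formed at the margin of the zebrafish gastrula, and mesendodermal cells have begun to move inward. BMP ligands such as Bmp2b bind serine/threonine kinase receptors that phosphorylate Smad1/5/9, which activates ventral genes, while Chordin is a secreted protein from the organizer that binds BMP ligands and blocks them. Excess BMP expands ventral tissue at the expense of dorsal tissue and excess Chordin does the reverse. Genes of the dorsal-ventral axis are therefore known to move in opposite directions after these injections. A gene that moves the same way after both falls outside that pattern. Injection is also a wound and delivers foreign RNA, and stress genes, such as those that rise after DNA damage in zebrafish embryos, are commonly inspected for such effects.

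Values are whole-number read counts per gene, given as CPM (counts scaled to a common library size) scaled with TMM factors, which correct each library for its composition. The 9 libraries held 8861308 to 22372856 counts, so that 3 counts, taken as the detection limit, were worth 0.129 to 0.342 CPM. Replicate 1 of the uninjected embryos stood apart from its group, with a chi-square per degree of freedom of 35.1 and 21.1 against replicates 2 and 3, which differed from each other by 14.4. It also lay at 63.6 on the second principal component, where 7 of the other libraries lay between -10.1 and 7.91. Replicates 1 and 3 of *chd* also differed by 27.4, and replicate 2 of *chd*, the library with the fewest counts, lay at -46.1 on the same component. Counts of called genes are given below without single libraries as well. Markers of the domains that a whole shield-stage embryo holds were present in the uninjected libraries, from the enveloping layer (*krt4*, 1992 to 3115 CPM) and the organizer (*gsc*, 43.0 to 60.1 CPM) to germ cells (*ddx4*, 201 to 248 CPM). Only the endoderm marker *sox17* was near the detection limit, at 0.131, 1.21 and 3.11 CPM.

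The injected transcripts matched the labels. *bmp2b* read 106, 98.9 and 117 CPM in uninjected embryos, 911, 865 and 711 CPM in *bmp*-overexpressing embryos and 73.4, 81.7 and 77.5 CPM in *chd*-overexpressing embryos. *chd* read 193, 216 and 218 CPM in uninjected embryos, 26.8, 34.9 and 25.8 CPM with *bmp* and 1763, 1656 and 2259 CPM with *chd*. Reads of injected and endogenous mRNA cannot be distinguished for *bmp2b* with *bmp* or for *chd* with *chd*. Those levels are a check of the libraries and not a response. The lower levels of *chd* with *bmp* and of *bmp2b* with *chd* were read in embryos that did not receive that mRNA. *chd* also shows how a mean over both injected groups can hide opposite moves. Its log2 fold change was -2.84 ± 0.22 (SE) with *bmp* and 3.20 ± 0.10 with *chd*, but 0.18 ± 0.14 for the injected mean (limma adjusted p = 0.682).

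Of 18003 genes tested, 90 were higher in injected than in uninjected embryos (0.5% of the genes tested) and 105 were lower (0.583%), at a Benjamini-Hochberg adjusted p under 0.05 in limma. The contrast is the mean of both injected groups minus the uninjected group, in a fit of 3 group means in which the spread is that within groups. At an unadjusted p under 0.05, 817 genes were higher and 1080 lower. When the 6 injected libraries were instead fitted as a single group, so that the difference between *bmp* and *chd* counted as spread, no gene passed. The smallest adjusted p was then 0.0645, and 573 genes were higher and 781 lower at an unadjusted p under 0.05. The counts also depended on how libraries were scaled. With library totals in place of TMM factors, 60 genes were higher and 133 lower, so that 31.1% of the called genes were higher in place of 46.2%. Single libraries mattered too. The counts of higher and lower genes were 185 and 204 without replicate 1 of the uninjected embryos, 22 and 61 without replicate 2 and 33 and 46 without replicate 3. They were 45 and 50, 89 and 78, and 71 and 69 without replicate 1, 2 or 3 of *bmp*. Without replicate 1, 2 or 3 of *chd* they were 59 and 66, 66 and 76, and 99 and 93.

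These 195 genes (1.08% of the genes tested) fell into 3 classes. 16 of the higher and 32 of the lower genes had log2 fold changes of opposite sign with *bmp* and *chd*. All 48 were called with *bmp* and 14 of the lower ones also with *chd*, and for all 48 the difference between *bmp* and *chd* was called. A further 42 higher and 45 lower genes had the same sign in both groups, but their injected and uninjected libraries overlapped. The remaining 60 genes, 32 higher (0.178% of the genes tested) and 28 lower (0.156%), had the same sign in both groups and all 6 injected libraries on one side of all 3 uninjected libraries. These are called genes that moved together. Over all genes tested, 325 (1.81%) had every injected library above every uninjected library and 303 (1.68%) had every injected library below. In the plot of both fold changes, the genes that moved together lie in 2 quadrants by definition, and both comparisons share the 3 uninjected libraries, which by itself draws points to those quadrants.

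**Figure D1:**
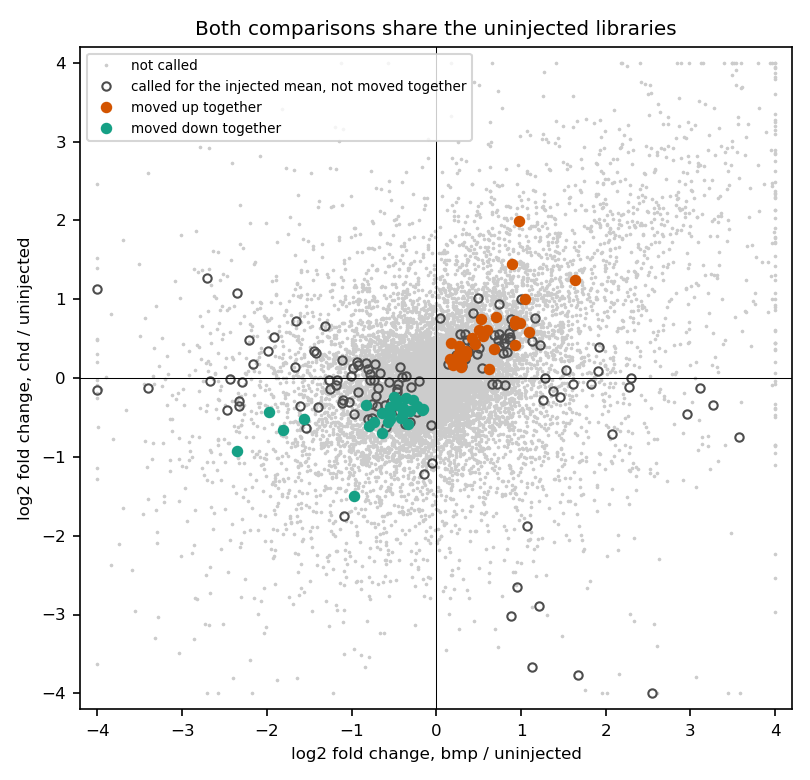
Log2 fold change of each of 18003 genes with chd (y axis) against that with bmp (x axis), both relative to the same 3 uninjected libraries, with values beyond 4 in either direction drawn at the edge. Filled points are the 32 genes that moved up together and the 28 that moved down together, open circles the other genes called for the injected mean, many of which lie near an axis or in the quadrants of opposite sign, and grey dots genes not called.

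The genes that moved together changed by small amounts. Their median log2 fold change for the injected mean was 0.45 among the 32 higher genes (0.18 to 1.48) and -0.46 among the 28 lower genes (-1.64 to -0.27). Only 4 of the higher and 5 of the lower genes were past 2-fold, and 20 and 19 were under 1.5-fold. Both injected groups were called on their own for 9 of the higher genes, *bmp* alone for 15, *chd* alone for 6 and neither for 2. Among the lower genes, both were called for 3, *bmp* alone for 16, *chd* alone for 5 and neither for 4. A call in one group and not in the other does not show that the groups differ. The difference itself was called for 4 of the 60 genes, *foxa2*, *apela*, *lrwd1* and *dhtkd1*, against 4% of all genes tested. Of the 60 genes, 8 (*cyp26a1*, *foxa2*, *aplnrb*, *pabpc1a*, *vent*, *sox2*, *lrwd1* and *dhtkd1*) were called for the injected mean whichever of the 9 libraries was left out. The call was lost by 48 of the 60 without replicate 2 of the uninjected embryos, by 44 without replicate 3 and by 5 without replicate 1. It was lost by 42, 18 and 23 without replicate 1, 2 or 3 of *bmp*, and by 31, 23 and 18 without replicate 1, 2 or 3 of *chd*.

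**Figure D2:**
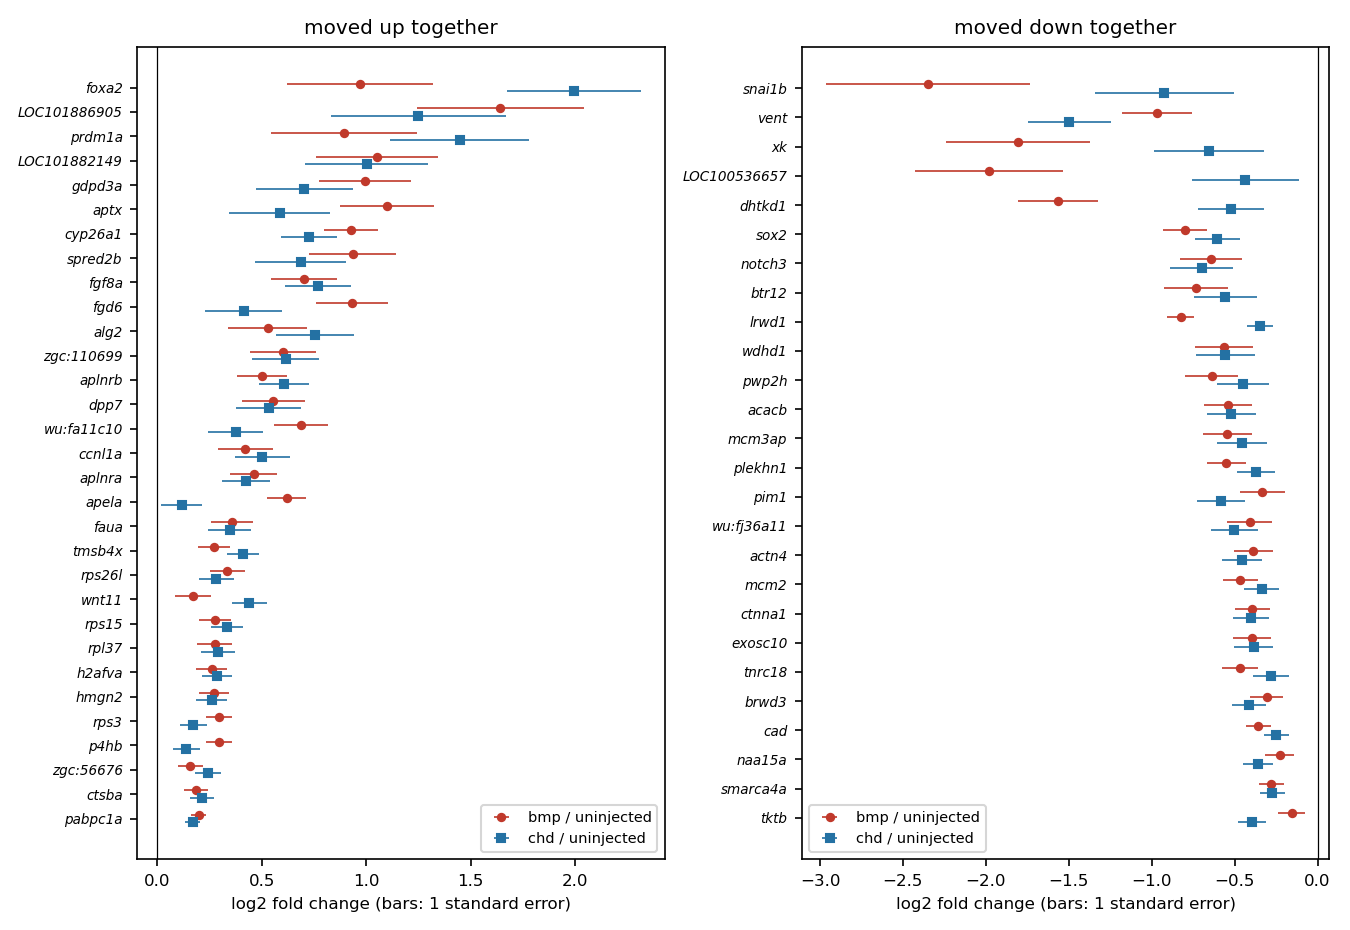
Log2 fold changes of 57 of the 60 genes that moved together, with bmp (circles) and with chd (squares) relative to the 3 uninjected libraries, ordered by the mean of both. Bars are 1 standard error from the fit of 9 libraries. Most genes lie within 1 log2 unit of 0, and the gap between circle and square was called for foxa2, apela, lrwd1 and dhtkd1.

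*cyp26a1* and *fgf8a* were among the genes that rose together and were called in both groups. They do not stand for margin genes as a set, since the margin markers *ta* and *tbx16* did not move together. The log2 fold changes of *ta* and *tbx16* were 0.32 and 0.35 with *bmp* and -0.15 and -0.13 with *chd*. *cyp26a1*, which encodes an enzyme that degrades retinoic acid, read 63.3, 82.0 and 83.7 CPM in uninjected embryos, 163, 148 and 125 CPM with *bmp* and 116, 131 and 132 CPM with *chd*. The lowest injected library thus lay well above the highest uninjected one. Its log2 fold change was 0.93 ± 0.13 (SE) with *bmp* (adjusted p = 3.32e-06) and 0.73 ± 0.13 with *chd* (adjusted p = 0.00114), and the difference between both was not called (adjusted p = 0.552). *fgf8a*, a fibroblast growth factor secreted at the margin, read 49.9, 32.3 and 45.1 CPM without injection, 67.8, 64.5 and 65.9 CPM with *bmp* and 66.6, 76.3 and 67.1 CPM with *chd*. Its injected libraries lay above all uninjected ones, by the rule that chose it. Replicate 2 of *chd*, at 76.3 CPM, lay apart from the other injected libraries. Log2 fold changes of *fgf8a* were 0.70 ± 0.16 with *bmp* and 0.77 ± 0.16 with *chd* (limma adjusted p = 0.00453 and 0.00518). Without replicate 2 of the uninjected embryos the call of *fgf8a* for the injected mean was lost.

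The Apelin receptors and one of their ligands rose as well. Aplnra and Aplnrb are G protein-coupled receptors on mesendodermal cells, and Apela (also named Toddler or Elabela) is a small secreted ligand needed for the movement of those cells during gastrulation. *aplnrb* read 102, 128 and 144 CPM in uninjected embryos, 183, 195 and 147 CPM with *bmp* and 183, 182 and 195 CPM with *chd*. The third *bmp* library exceeded the highest uninjected library only narrowly, while the other 5 injected libraries lay well above it. Log2 fold changes were 0.50 ± 0.12 and 0.60 ± 0.12, both called (adjusted p = 0.00902 and 0.00334). *aplnra* read 149, 125 and 136 CPM, 196, 207 and 156 CPM and 199.7, 177 and 170.1 CPM in the same order of groups. It was called with *bmp* (log2 fold change 0.46 ± 0.11, adjusted p = 0.0116) and had a log2 fold change of 0.43 ± 0.11 with *chd* (adjusted p = 0.0606). *apela* read 176, 178 and 181 CPM without injection, 289, 252 and 285 CPM with *bmp* and 197, 194 and 191 CPM with *chd*. All its injected libraries were higher, but nearly all of the change lay with *bmp*. Its log2 fold change was 0.62 ± 0.09 with *bmp* and 0.12 ± 0.10 with *chd* (adjusted p = 0.768), and the groups differed (adjusted p = 0.000467). Without replicate 2 or 3 of the uninjected embryos, or replicate 1 of the *bmp*-overexpressing embryos, *apela* and *aplnra* were no longer called for the injected mean, whereas *aplnrb* was called whichever of the 9 libraries was left out.

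2 transcription factor genes rose by more. *foxa2*, a forkhead factor of endoderm and axial mesoderm, read 3.48, 5.90 and 6.87 CPM in uninjected embryos, 13.2, 8.21 and 10.4 CPM with *bmp* and 18.4, 22.8 and 22.4 CPM with *chd*. Each group was thus separate from the next, and the order was uninjected, *bmp*, *chd*. The log2 fold change was 1.995 ± 0.32 with *chd* (adjusted p = 0.00017) and 0.97 ± 0.35 with *bmp* (adjusted p = 0.157), and these differed (adjusted p = 0.0218). *prdm1a*, which encodes a zinc finger repressor, read 3.42, 6.72 and 8.61 CPM, 13.8, 9.41 and 10.2 CPM and 15.6, 12.2 and 19.2 CPM in the same order, and was called with *chd* only (log2 fold change 1.45 ± 0.33, adjusted p = 0.0161). It stood just inside the threshold for the injected mean, at an adjusted p of 0.0497, and lost that call without replicate 1, 2 or 3 of the uninjected embryos, replicate 1 or 3 of the *bmp*-overexpressing embryos or replicate 1 or 3 of the *chd*-overexpressing embryos. *wnt11*, a Wnt ligand that guides convergence and extension movements, read 267, 254 and 279 CPM without injection, 293, 299 and 301 CPM with *bmp* and 331, 364 and 381 CPM with *chd*. Its *bmp* libraries exceeded the uninjected ones by little, and only the change with *chd* was called (log2 fold change 0.44 ± 0.08, adjusted p = 0.00229, against 0.17 ± 0.09 with *bmp*).

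*spred2b*, which encodes an inhibitor of Ras signalling, read 14.5, 16.2 and 18.2 CPM in uninjected embryos, 28.8, 32.5 and 31.5 CPM with *bmp* and 31.6, 27.2 and 21.9 CPM with *chd*. Among its libraries only replicate 3 of *chd* came close to the uninjected range. *spred2b* was called with *bmp* only. *gdpd3a*, a glycerophosphodiester phosphodiesterase gene, read 18.2, 11.8 and 19.2 CPM, 35.1, 31.2 and 25.6 CPM and 25.6, 22.9 and 25.8 CPM, and *aptx*, which encodes the DNA repair protein aprataxin, read 13.6, 11.4 and 15.2 CPM, 30.1, 31.1 and 22.4 CPM and 20.5, 17.99 and 19.6 CPM, in the order uninjected, *bmp*, *chd*. Both were called with *bmp* only, with log2 fold changes of 0.99 ± 0.22 and 1.098 ± 0.22. *zgc:110699* was called in both groups (37.1, 32.3 and 33.9 CPM uninjected, 48.4, 52.3 and 55.0 CPM with *bmp* and 54.5, 58.6 and 47.2 CPM with *chd*, log2 fold changes 0.60 ± 0.16 and 0.62 ± 0.16). *dpp7*, a dipeptidyl peptidase gene, read 42.8, 36.7 and 41.2 CPM, 64.8, 58.2 and 52.6 CPM and 55.1, 53.4 and 62.4 CPM in the same order. It was called with *bmp* only. The counts of 2 further genes are uncertain, because libraries did not record the strand and their table positions overlap other genes. *alg2*, which encodes a mannosyltransferase of protein glycosylation, held 4489 counts in all and overlaps *sec61b* with 106384. It lost its call for the injected mean when any library but replicate 3 of *bmp* was left out. *LOC101882149* (12.3, 8.53 and 10.5 CPM uninjected, 22.3, 23.0 and 17.4 CPM with *bmp*, 29.6, 27.2 and 12.7 CPM with *chd*) lies within a span of chromosome 4 that 18 other rows overlap. *LOC101886905*, an unnamed gene, read 1.97, 6.46 and 3.54 CPM, 10.0, 15.6 and 11.4 CPM and 8.74, 11.7 and 8.64 CPM in the order uninjected, *bmp*, *chd* and lost its call whichever of the 9 libraries was left out.

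**Figure D3:**
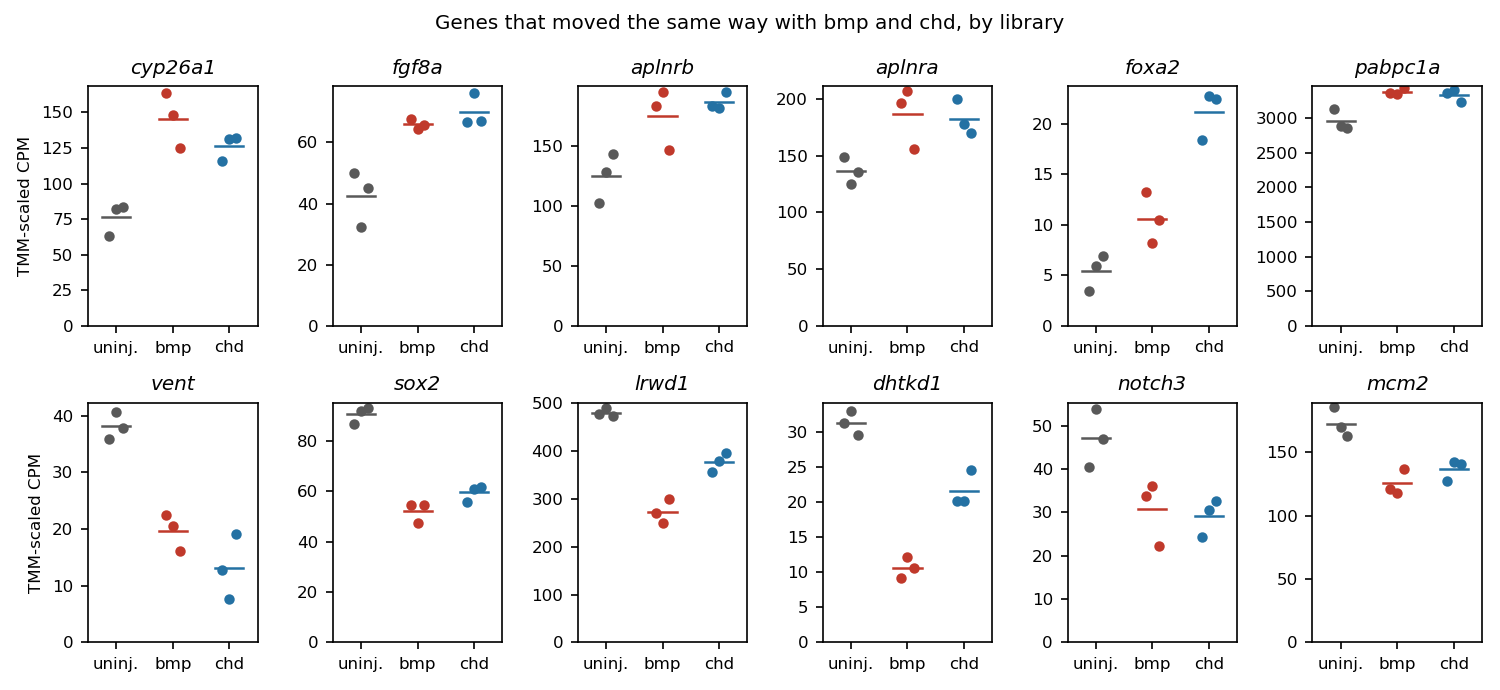
TMM-scaled CPM in each of the 9 libraries for 12 of the 60 genes that moved together, with uninjected (grey), bmp (red) and chd (blue) libraries as points, group means as lines and each y axis starting at 0. In every panel the 6 injected libraries lie on one side of the 3 uninjected libraries, by the rule that chose the genes. The bmp and chd groups lie at similar levels for fgf8a and apart from each other for foxa2, lrwd1 and dhtkd1.

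Several highly expressed genes passed the test with small changes. *pabpc1a*, which encodes a protein that binds the poly(A) tail of mRNA, read 3137, 2885 and 2855 CPM in uninjected embryos, 3369.8, 3344 and 3436 CPM with *bmp* and 3360.5, 3408 and 3231 CPM with *chd*. This is a log2 fold change of 0.20 ± 0.04 and 0.17 ± 0.04, called in both groups (adjusted p = 0.000493 and 0.0116). *tmsb4x*, which encodes an actin-binding thymosin, read 443, 396 and 438 CPM, 532, 474 and 525 CPM and 602, 561 and 529 CPM, and *h2afva*, which encodes a variant histone H2A, 636, 563 and 593 CPM, 675, 679.8 and 787 CPM and 758, 772 and 669 CPM, in the order uninjected, *bmp*, *chd*. Both were called in both groups. With library totals in place of TMM factors, *h2afva* was no longer called for the injected mean. It also lost that call without replicate 2 or 3 of the uninjected embryos, replicate 3 of *bmp* or replicate 1 or 2 of *chd*. *tmsb4x* lost its call with *bmp* in 10 of 20 alternatives. The other 7 genes that rose together, leaving out ribosomal proteins, were *hmgn2* (a nucleosome-binding protein), *p4hb* (protein disulfide isomerase), *ctsba* (the protease cathepsin B), *ccnl1a* (a cyclin of splicing), *fgd6* (a guanine nucleotide exchange factor), *wu:fa11c10* and *zgc:56676*, and had log2 fold changes between 0.20 and 0.67 for the injected mean. *zgc:56676* lost its call when any library but replicate 2 of the uninjected embryos was left out.

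Genes that fell together included regulators of ectoderm and ventral fate. *vent*, a homeobox repressor that limits dorsal genes on the ventral side and is known to respond to BMP, read 35.9, 40.7 and 37.9 CPM in uninjected embryos, 22.4, 20.5 and 16.1 CPM with *bmp* and 12.7, 7.74 and 19.2 CPM with *chd*. It thus fell with both injections, by 0.97 ± 0.21 on the log2 scale with *bmp* (adjusted p = 0.00366) and by 1.498 ± 0.25 with *chd* (adjusted p = 0.000324). The difference between the groups was not called (adjusted p = 0.456). Of the related ventral repressors, *ved* had log2 fold changes of 1.07 with *bmp* and -1.88 with *chd*, and *vox* of -0.06 and -0.59. In the tables *vent* shares 1 broad span with 20 other rows (GRCz10 chromosome 13, 49538304 to 50466641), so its own position and overlaps are not resolved there. *sox2*, which encodes a transcription factor of pluripotent cells and early neural ectoderm, read 86.5, 91.9 and 92.9 CPM without injection, 54.6, 47.5 and 54.6 CPM with *bmp* and 55.7, 61.0 and 61.8 CPM with *chd*. The groups were far apart, and it fell by 0.80 ± 0.14 with *bmp* and by 0.60 ± 0.13 with *chd* on the log2 scale (adjusted p = 0.00011 and 0.011). *sox2* overlaps *sox2ot*, which held 217 counts against 9185 for *sox2*. *sox3*, a related gene of the ectoderm, fell for the injected mean and with *chd* (log2 fold change -0.43, adjusted p = 0.00300) and read -0.22 with *bmp* (adjusted p = 0.162).

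*notch3*, a Notch receptor gene, read 40.5, 53.8 and 46.9 CPM in uninjected embryos, 33.7, 36.0 and 22.3 CPM with *bmp* and 24.4, 30.6 and 32.7 CPM with *chd*, with log2 fold changes of -0.64 ± 0.19 (adjusted p = 0.0481) and -0.70 ± 0.19 (adjusted p = 0.0676). Without replicate 2 or 3 of the uninjected embryos, replicate 3 of *bmp* or replicate 1 of *chd*, its call for the injected mean was lost. *snai1b*, which encodes a zinc finger repressor active in migrating mesoderm, had low levels of 7.29, 9.56 and 9.04 CPM, 3.67, 2.60 and 0.399 CPM and 3.97, 3.87 and 5.47 CPM in the order uninjected, *bmp*, *chd*, of which 0.399 CPM is 5 counts. It was called with *bmp* only (log2 fold change -2.35 ± 0.61, adjusted p = 0.021), and its call for the injected mean held without replicate 1 of the uninjected or replicate 3 of the *chd*-overexpressing embryos but with none of the other 7 libraries left out. *xk*, a membrane protein gene, read 9.72, 9.22 and 13.2 CPM, 2.35, 2.74 and 3.99 CPM and 6.91, 6.26 and 6.39 CPM, and *LOC100536657*, which has no name, 12.6, 13.1 and 17.7 CPM, 4.99, 1.201 and 8.77 CPM and 8.74, 10.0 and 12.0 CPM, in the same order. Both were lowest in the *bmp* libraries and were called with *bmp* alone.

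*lrwd1*, whose product binds the origin recognition complex, had the smallest adjusted p among the 60 genes. It read 477, 489 and 472 CPM in uninjected embryos, 270.4, 249.5 and 299 CPM with *bmp* and 355, 379.7 and 396 CPM with *chd*. The 3 groups did not overlap, with *bmp* lowest. It fell by 0.82 ± 0.08 on the log2 scale with *bmp* (adjusted p = 3.24e-09) and by 0.35 ± 0.08 with *chd* (adjusted p = 0.0128), a difference that was called (adjusted p = 0.000299). *dhtkd1*, which encodes a subunit of a mitochondrial dehydrogenase, read 31.2, 32.9 and 29.5 CPM, 9.17, 12.2 and 10.5 CPM and 20.1, 20.2 and 24.5 CPM in the order uninjected, *bmp*, *chd*, and the *bmp* libraries were again the lowest. Its log2 fold change was -1.56 ± 0.24 with *bmp* (adjusted p = 2.51e-05) and -0.52 ± 0.20 with *chd* (adjusted p = 0.322), which differed (adjusted p = 0.012). Other genes of DNA replication among the 28 were *mcm2*, a subunit of the replicative helicase (186, 169.6 and 162 CPM, 121, 118 and 137 CPM and 127, 142 and 141 CPM), and *wdhd1*, a replisome protein (52.4, 49.3 and 47.9 CPM, 33.3, 41.4 and 26.8 CPM and 37.7, 39.6 and 28.5 CPM). *mcm2* was called with *bmp* (log2 fold change -0.47 ± 0.11, adjusted p = 0.00612) and *wdhd1* with neither group on its own. *wdhd1* was also the member, with *LOC101886905*, that kept its call for the injected mean in fewest alternatives, 5 of 20, and it lost the call when any library but replicate 2 of *bmp* was left out. Of 43 cell cycle genes tested, 2 fell (*mcm2* and *cdt1*) and 0 rose, against 0.583% lower and 0.5% higher over all genes tested. At an unadjusted p under 0.05 in limma, 5 were higher and 8 lower (30.2%, against 10.5% of all genes tested). Of the 2 called genes only *mcm2* moved together, where 60 of the 195 genes called over all genes tested did. With *bmp* 1 of the 43 genes was higher and 4 lower, against 1.69% and 1.48% of all genes tested. With *chd* 0 were higher and 0 lower, against 0.767% and 0.328%.

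Other genes that fell together included *acacb* (acetyl-CoA carboxylase, 95.7, 80.8 and 123 CPM uninjected, 58.4, 71.9 and 68.4 CPM with *bmp* and 65.7, 77.1 and 62.3 CPM with *chd*), *pwp2h* (ribosomal RNA processing, 53.4, 64.8 and 61.1 CPM, 37.5, 41.4 and 36.6 CPM and 37.4, 44.3 and 49.8 CPM) and *mcm3ap* (mRNA export, 62.6, 82.7 and 78.0 CPM, 56.3, 42.6 and 57.0 CPM and 52.6, 53.1 and 56.9 CPM). In each the highest injected library lay a little under the lowest uninjected one. *btr12*, a member of the bloodthirsty family of TRIM genes, read 35.5, 40.9 and 36.0 CPM, 26.0, 19.9 and 23.0 CPM and 20.9, 27.2 and 29.1 CPM. Cell adhesion and cytoskeleton were represented by *ctnna1* (alpha-catenin, log2 fold change -0.40 ± 0.09 for the injected mean) and *actn4* (alpha-actinin, -0.42 ± 0.10), and chromatin by *smarca4a* (a remodelling ATPase, -0.28 ± 0.06). *cad*, which encodes the enzyme that starts pyrimidine synthesis, read -0.30 ± 0.06 and *exosc10*, a subunit of the nuclear exosome, -0.39 ± 0.10. Further members were *tnrc18*, *brwd3*, *naa15a* (a subunit of an N-terminal acetyltransferase), *pim1* (a kinase), *plekhn1*, *tktb* (a transketolase) and *wu:fj36a11*, with log2 fold changes between -0.46 and -0.27 for the injected mean. These roles were grouped after the values had been seen. Members just inside the threshold included *prdm1a* at an adjusted p of 0.0497 and *LOC101886905* at 0.0476. Genes just outside, with the other conditions met, included *gpt2* and *rps4x*, both at 0.0561.

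A stricter reading is to ask for a call in each group on its own. With *bmp*, 304 genes were higher (1.69% of the genes tested) and 266 lower (1.48%), and with *chd* 138 were higher (0.767%) and 59 lower (0.328%). 13 genes were called higher in both (0.0722%) and 3 lower in both (0.0167%), where both comparisons used the same uninjected libraries. The 3 lower genes were *vent*, *sox2* and *lrwd1*. The 13 higher genes included *cyp26a1*, *fgf8a*, *aplnrb*, *zgc:110699*, *pabpc1a*, *tmsb4x*, *h2afva*, the ribosomal protein genes *rps15* and *rpl26*, and 3 rows of the mitochondrial genome. The last 3 rows and *rpl26* did not count as moved together, since replicate 1 of the uninjected embryos reached the injected range. When each group was fitted with the uninjected libraries alone, 4 genes were called higher in both and 3 lower. Without replicate 1 of the uninjected embryos the counts were 69 and 20, without replicate 2 they were 5 and 7, and without replicate 3 they were 4 and 4. They were 6 and 3 without replicate 1 of *bmp*, and 6 and 2, 6 and 3, and 27 and 6 without replicate 1, 2 or 3 of *chd*. *aplnrb* lost its call with *bmp* without replicate 1 of the uninjected embryos or replicate 1 or 2 of *bmp*. *sox2* lost its call with *chd* without replicate 1 of *chd*. *lrwd1* lost its call with *chd* without replicate 2 of the uninjected embryos or replicate 1 or 2 of *chd*. Other genes lost calls too, counted here over 20 alternatives, first with *bmp* and then with *chd*. The losses were 6 and 10 for *zgc:110699*, 8 and 10 for *h2afva*, 10 and 0 for *tmsb4x* and 10 and 7 for *rps15*. They were 1 and 7 for *pabpc1a*, 1 and 8 for *rpl26* and 1 and 1 for *fgf8a*. *cyp26a1* and *vent* lost neither call in any alternative. Of the counts for single groups, genes lower with *bmp* were 400 without replicate 1 of the uninjected embryos and 177 without replicate 1 of *bmp*. Genes higher with *chd* were 91 without replicate 2 of the uninjected embryos and 85 without replicate 1 of *chd*, and genes lower with *chd* were 119 without replicate 1 of the uninjected embryos and 39, 37 and 38 without replicate 1, 2 or 3 of *chd*.

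Genes carried by 1 group show what the injected mean picks up besides shared changes. *tp63*, a gene of ventral ectoderm, read 8.34, 8.01 and 12.4 CPM in uninjected embryos, 105, 112 and 112 CPM with *bmp* and 7.79, 9.22 and 3.17 CPM with *chd*, so that its call for the injected mean came from *bmp* alone. *syn1* (16.8, 11.6 and 10.3 CPM, 103, 117 and 105 CPM and 9.86, 12.3 and 12.4 CPM) and *ube2e2* (5.58, 8.91 and 8.46 CPM, 77.6, 64.1 and 82.4 CPM and 7.47, 5.92 and 5.18 CPM) had the same pattern. *tiam2a* (9.92, 7.45 and 8.90 CPM, 0.88, 0.4 and 1.44 CPM and 8.11, 5.58 and 8.93 CPM) and *si:ch73-299h12.3* were called lower with *bmp* only. *szl*, which encodes the secreted BMP feedback inhibitor Sizzled, moved in opposite directions. It read 141, 141 and 155 CPM without injection, 808, 878 and 855 CPM with *bmp* and 1.35, 0.683 and 0.518 CPM with *chd*, and its log2 fold change of -2.48 ± 0.39 for the injected mean reflects a change with *chd* that was larger than the opposite one with *bmp*.

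The same held for lists of axis genes. Over all genes tested, 0.5% were higher and 0.583% lower for the injected mean, 1.69% and 1.48% with *bmp* and 0.767% and 0.328% with *chd*. Over all genes tested, 0.178% moved up together and 0.156% moved down together, which is 60 of the 195 genes called for the injected mean. The list counts are to be read beside these shares. The lists were chosen with earlier results of these data known, so their counts are a description and not a test. Of 36 genes known to be raised by BMP, 27 were higher with *bmp* and 22 lower with *chd*, and the injected mean called 3 higher and 10 lower. Among these 13, *vent* alone moved together. Of 17 genes of the organizer and axial mesendoderm, 10 were lower with *bmp* and 12 higher with *chd*, and the injected mean called 1 higher (*foxa2*) and 1 lower (*foxd3*, with log2 fold changes of -4.61 and 1.12). Among 42 zygotic genes already active in the blastula, 4 rose and 9 fell for the injected mean. 6 of these 13 moved together, *aplnra*, *aplnrb*, *apela* and *fgf8a* upwards and *vent* and *sox2* downwards. Of 55 genes that rise during gastrulation 4 rose, *cyp26a1* and *foxa2* among them, and 2 fell, with a median log2 fold change of 0.26 against -0.01 over all genes tested. The median of those 55 genes was 0.10 with *bmp* and 0.59 with *chd*. For the injected mean it was 0.15 and 0.11 without replicate 1 or 2 of the uninjected embryos, 0.17 without replicate 3 of *chd* and 0.40 without a low-count filter. Of 33 maternal transcripts 0 rose and 0 fell (limma, 2 higher and 1 lower at an unadjusted p under 0.05), with a median of 0.03.

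Few stress genes were called, but only 1.08% of all genes tested were called for the injected mean in either direction. At that share most lists of this size would hold no call, so 0 calls does not set a list apart. Of 26 genes of the DNA damage response tested, 0 were called in limma, and at an unadjusted p under 0.05 1 was higher (3.85%, against 10.5% of all genes tested) and 0 lower. Their median log2 fold change was -0.06, and the smallest p was that of *gadd45ba* (168, 127 and 138 CPM uninjected, 172, 179 and 165 CPM with *bmp*, 179.9, 169 and 175 CPM with *chd*, adjusted p = 0.164). *mdm2* and *cdkn1a* had mean log2 differences between injected and uninjected libraries of -0.09 and -0.36 (two-sided exact permutation p = 0.667 and 0.357, with a smallest possible p of 0.0119). Of 36 genes of the integrated stress and unfolded protein responses, 0 were called, and 6 were higher and 3 lower at an unadjusted p under 0.05 (25%). *chac1* read 74.1, 99.1 and 100.3 CPM without injection, 119, 109 and 96.2 CPM with *bmp* and 110.4, 123 and 126 CPM with *chd*, with overlapping groups. 0 genes were called among 22 of interferon and RNA sensing (2 higher and 1 lower at an unadjusted p under 0.05), 30 immediate early genes (2 and 2), 24 hypoxia genes (1 and 1) and 27 apoptosis genes (1 and 1). *pkz*, which encodes a protein kinase, read 0.0657, 0 and 0 CPM, 0.293, 1.80 and 0 CPM and 1.67, 1.02 and 1.21 CPM in the order uninjected, *bmp*, *chd*. It held at most 27 counts in a library and was not called in limma (adjusted p = 0.414).

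Among 20 heat shock genes, 1 rose and 1 fell (against 0.5% and 0.583% of all genes tested), neither of them together. *serpinh1b*, a collagen chaperone, read 87.0, 70.07 and 92.5 CPM in uninjected embryos, 208, 155 and 175 CPM with *bmp* and 167, 111 and 82.4 CPM with *chd*. Replicate 3 of *chd* lay within the uninjected range, and the groups differed (adjusted p = 0.00752). *hspb1*, a small heat shock protein, read 1349, 1615 and 1438 CPM, 862, 937 and 1018 CPM and 1489.7, 1401 and 1695 CPM and was called with *bmp* only. At this depth and number of libraries a change of 2-fold can go uncalled. In simulated counts with known changes, the same fit called 62% of genes changed 2-fold and 87% of those changed 4-fold. Those changes were equal in both injected groups and left out rare genes. Smaller changes were not simulated, and no simulated library stood apart. The limma-trend fit called 0 genes of the DNA damage, integrated stress, interferon, immediate early, hypoxia and apoptosis lists as well. That fit called only 71 higher and 57 lower of 18003 genes tested, fewer than the main fit. Its 0 calls therefore do not set these lists apart either. Without replicate 1 of the uninjected embryos, 1 DNA damage gene (*gadd45ba*), 2 integrated stress genes and 1 immediate early gene were called higher. In that setting 185 of all 17563 genes tested were higher.

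Transcripts of the mitochondrial genome and of cytosolic ribosomal proteins were called in larger numbers, and upwards only. All 10 mitochondrially encoded rows were higher for the injected mean (against 0.5% of all genes tested), with a median log2 fold change of 0.65, which was 0.82 with *bmp* and 0.52 with *chd*. Without replicate 2 of the uninjected embryos this median fell to 0.35 for the injected mean, and without replicate 1 it was 0.91. *CYTB*, the gene of cytochrome b, read 6678, 3413 and 3859 CPM in uninjected embryos, 8549, 8205 and 7294 CPM with *bmp* and 9814, 6636 and 5230.4 CPM with *chd*. *ND3*, a subunit gene of complex I, read 966, 527 and 688 CPM, 1197, 1045 and 1043 CPM and 1358, 999 and 776 CPM. In both, uninjected replicates 2 and 3 lay below every injected library, whereas uninjected replicate 1 lay within the *chd* range. All 10 rows were called with *bmp* and 3 with *chd*. Mitochondrially encoded transcripts made up 6.31%, 3.33% and 4.09% of the counts in uninjected embryos, 8.06%, 7.34% and 6.61% with *bmp* and 8.57%, 5.77% and 4.53% with *chd*. All *bmp* libraries lay above the uninjected ones, and the *chd* libraries spanned most of the whole range. The rows of 1 mitochondrial genome move together in each library and are not independent of each other.

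Of 79 cytosolic ribosomal protein genes tested, 13 rose and 0 fell (against 0.5% and 0.583% of all genes tested). A positive log2 fold change was read for 77 of them, against 8863 of all 18003 genes tested. The median was 0.18 (0.20 with *bmp* and 0.16 with *chd*). At an unadjusted p under 0.05 in limma, 62 were higher and 0 lower, against 817 and 1080 of all genes tested. The 79 genes were read in the same libraries and need not be independent of each other. 5 moved up together (against 0.178% of all genes tested), among them *rps3*, *rps15*, *rps26l* and *rpl37*. *faua*, which encodes ribosomal protein S30 fused to a ubiquitin-like protein, is outside the list and moved with them. The share of the listed genes in all counts was 5.27%, 4.57% and 4.93% in uninjected embryos, 5.62%, 5.16% and 5.57% with *bmp* and 5.31%, 5.21% and 5.23% with *chd*, so the groups overlapped through uninjected replicate 1. Both lists depended on single uninjected libraries, as did the counts over all genes tested. Without replicate 1, 42 ribosomal protein genes and 10 mitochondrial rows were called higher, and 39 and 10 of them moved together. Without replicate 2, which had the lowest share of both, 0 and 1 were called and the median of the ribosomal protein genes was 0.10, and without replicate 3, 1 and 6. Without replicate 1, 2 or 3, the genes called higher over all genes tested were 185 of 17563, 22 of 17630 and 33 of 17778. With all libraries they were 90 of 18003. The genes that moved up together were 133, 9 and 11, against 32 with all libraries. Ribosomal protein calls also fell to 2 without replicate 1 of *bmp*, to 8 without replicate 3 of *bmp*, to 7 without replicate 1 of *chd*, to 7 with library totals in place of TMM factors and to 2 with limma-trend. Over all genes tested, the genes called higher in those settings were 45, 71, 59, 60 and 71, in the same order. Without a low-count filter 4 mitochondrial rows were called, and 64 of 28260 genes over all. RNA quality of the libraries was not tested.

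**Figure D4:**
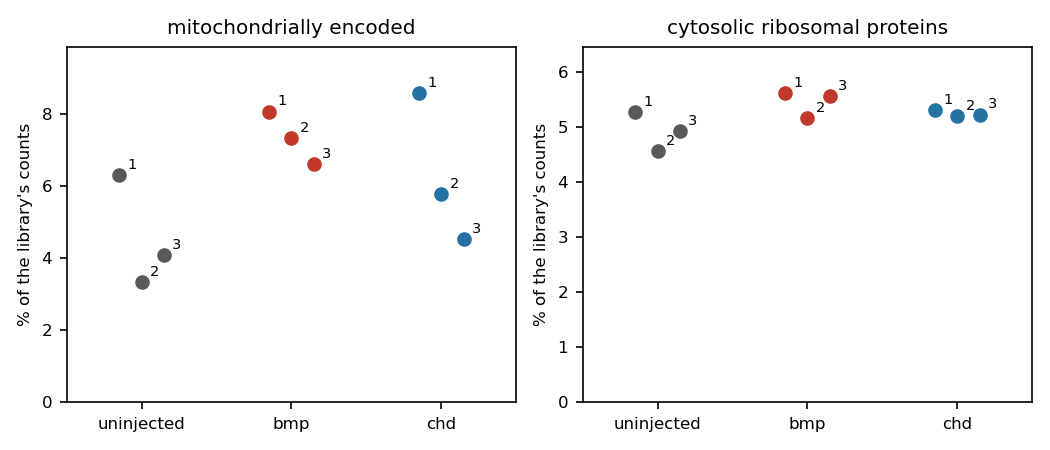
Share of each library's counts (y axes, %, starting at 0) from mitochondrially encoded rows (left) and cytosolic ribosomal protein genes (right), for 3 uninjected, 3 bmp and 3 chd libraries, numbered by replicate. Uninjected replicate 2 is lowest in both panels, at 3.33% and 4.57%, and uninjected replicate 1, at 6.31% and 5.27%, lies among the injected libraries.

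Further lists held 0 to 5 called genes each for the injected mean, where 0.5% of all genes tested were higher and 0.583% lower. In lists of this size even 1 call is a larger share than those. At an unadjusted p under 0.05 in limma, their shares ran from 11.1% (endoderm) to 42.1% (markers of embryo domains). Over all genes tested that share was 10.5%. 1 of 30 enveloping layer genes rose (*anxa1c*, log2 fold change 0.49 with *bmp* and 1.02 with *chd*), and 0 of 24 genes of the yolk syncytial layer (2 higher and 2 lower at an unadjusted p under 0.05) and 0 of 15 germ cell genes (1 and 1) were called in limma. The enveloping layer list summed to 1.14% to 1.58% of counts in uninjected, 1.18% to 1.27% in *bmp* and 1.28% to 1.40% in *chd* libraries. Of 9 endoderm genes *foxa2* rose. Of 18 genes of the FGF pathway 2 rose, *fgf8a* with both injections and *fgfr4* with *bmp* (log2 fold changes 0.66 and -0.07). Of 20 Wnt genes 1 rose (*wnt11*) and 2 fell (*vent* and *vox*), of 20 Nodal pathway genes 1 rose (*acvr1ba*), and of 43 genes of RNA decay and translation control 1 rose (*pabpc1a*) and 1 fell (*exosc10*). Of 17 histone genes 1 rose (*h2afva*) and 1 fell (*h2afvb*). Of 19 markers of embryo domains 0 rose and 5 fell, *szl*, *ved*, *foxi1*, *sox3* and *vox*, and none of these moved together.

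The number of genes that moved together depended on single libraries. Without replicate 1 of the uninjected embryos, 185 genes were higher and 204 lower for the injected mean, and 133 moved up and 112 moved down together. Of the original members 28 of 32 and 27 of 28 were still among them. Separation of 6 libraries from 2 is easier than from 3, and 9.41% of all genes tested had their injected libraries on one side without replicate 1, against 3.49% with all libraries. The same share was 8.03% without replicate 2 and 7.70% without replicate 3, where only 9 and 11 genes moved up and 21 and 10 moved down together. The numbers up and down were 11 and 7, 35 and 26, and 25 and 16 without replicate 1, 2 or 3 of *bmp*. They were 19 and 15, 24 and 20, and 43 and 34 without replicate 1, 2 or 3 of *chd*. 7 of them, *cyp26a1*, *foxa2*, *aplnrb*, *vent*, *sox2*, *lrwd1* and *dhtkd1*, were called for the injected mean in 19 of 20 alternatives, the exception being the fit of all injected libraries as 1 group.

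**Figure D5:**
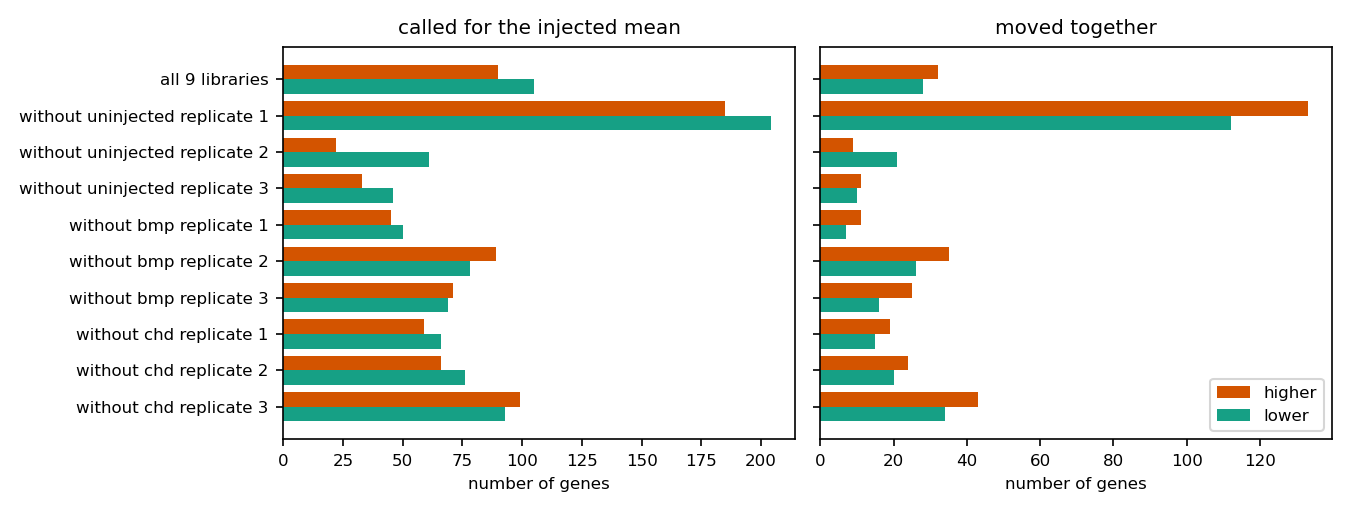
Number of genes (x axes, starting at 0) called higher or lower for the injected mean (left) and moved together (right), with all 9 libraries and with each library left out in turn. Without uninjected replicate 1 the numbers that moved together rise from 32 and 28 to 133 and 112, and without uninjected replicate 3 they fall to 11 and 10.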

How the data were processed

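RNA was sequenced from 9 pools of 10 embryos, 3 per group. The authors supplied total RNA for sequencing. The authors aligned reads to GRCz10 with STAR 2.4.1b and deposited 3 tables of whole-number read counts per gene, with no normalization, whose digits are grouped by commas and which are therefore recorded as another unit than counts. The submitters' notes also name HTSeq and Cufflinks without a role, and the counting program is not given in the sources used here. Columns that the authors deposited with log2 fold changes, p-values and calls of DESeq 1.12.0, Cuffdiff 2.1.1 and edgeR 3.2.3 were not used.

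The 3 tables were joined by gene and locus (41977 rows, 28260 with a count, 167 of which join several genes), and shared columns were identical. After removal of the commas, the whole-number counts were fitted with limma 3.58.1 (voom) in R 4.3.3. A count-based test was not used, because of how the unit was recorded and not because of the values themselves. TMM factors (trimming 30% and 5%) and a filter (the CPM of 10 counts at the median library in 3 libraries, 15 counts in total) were written for this work. 1 fit held 3 group means. A gene moved together if it was called at an adjusted p under 0.05, had 1 sign in both groups and injected libraries that did not overlap the uninjected ones. Labels do not state that replicates came from separate crosses, so p-values measure the spread between these pools. No 2 libraries of the same group were copies (chi-square per degree of freedom 12.1 to 35.1).

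On simulated counts of 16654 genes, 200 of them changed, 5.1% of calls for the injected contrast were false and 0 had the wrong sign. The simulation changed no rare genes, and each change was equal in both injected groups. Genes of similar level had the same spread and no library stood apart, so these shares need not hold for the data. Named genes are the injected transcripts, the 12 genes per direction that moved together most in the weaker group, genes called in both groups, list members that moved together, 3 examples per direction carried by 1 group, and 2 genes per stress list. The other genes that moved together, and list members named beside a count, were picked once their values were known. The members and lists were chosen with earlier results of these data known. Alternatives were other filters, scalings, models, thresholds, thinning and leaving out each library. Tables were handled with data.table (version 1.17.8), pandas 2.3.3 and Python 3.11.15, and plots drawn with matplotlib 3.10.9. Genome sequence was not used here, and some genes are not reported here. Intervals between libraries rest on 3 pools a group, and detection limits cover counting error only.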

Additional observations from a re-analysis of the deposited data

Results flagged for a closer look

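In 6 of 86 named genes, 1 of the 6 injected libraries lay far from the other 5 by Dixon's criterion (0.625), which flags about 1 group in 20 by chance. *fgf8a* was highest in replicate 2 of *chd* (76.3 CPM, the other 5 lying between 64.5 and 67.8) and *ccnl1a* in replicate 1 of *chd* (148 CPM). *aplnrb* was lowest in replicate 3 of *bmp* (147 CPM), *rps26l* in replicate 3 of *chd* (402 CPM), *wu:fj36a11* in replicate 1 of *chd* (50.3 CPM) and *mcm3ap* in replicate 2 of *bmp* (42.6 CPM). All 6 genes moved together, and the low values of *aplnrb* and *rps26l* lay nearest to the uninjected range.

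The effects of *bmp* and *chd* differed for 14 named genes by the limma test of the difference, given here as *bmp* minus *chd* on the log2 scale. 4 of them moved together, *foxa2* (-1.02), *apela* (0.50), *lrwd1* (-0.48) and *dhtkd1* (-1.04). Their shared sign is part of the rule that chose them. On its own, each group was called for *lrwd1*, only *bmp* for *apela* and *dhtkd1*, and only *chd* for *foxa2*. The injected transcripts differed at least in part by construction, *bmp2b* by 3.42 and *chd* by -6.05. The others were *syn1* (3.24), *ube2e2* (3.61), *tp63* (4.33), *serpinh1b* (0.66), *hspb1* (-0.73), *tiam2a* (-3.27), *si:ch73-299h12.3* (-3.99) and *szl* (10.06).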

How the results depend on the processing

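Of the results for the injected mean, 90 genes were higher and 105 lower, and 32 and 28 moved together. Without a low-count filter, 57 genes were lower and 18 moved down together. With library totals only, 17 and 44 moved together and 6 and 8 were called in both groups. With all injected libraries as 1 group, all 4 counts were 0. Separate fits of 6 libraries called 4 genes higher in both groups. limma-trend called 57 lower, 21 and 10 together, 7 higher in both and 88 higher with *chd*. At an adjusted p under 0.01 the counts were 30 and 36 for the injected mean, 7 and 4 together, 4 and 1 in both groups, 201 and 174 with *bmp* and 76 and 32 with *chd*. At 0.10, 47 moved down together, 27 and 9 were called in both groups and 89 were lower with *chd*. With each library left out in turn, 22 to 185 genes were higher and 46 to 204 lower for the injected mean (lowest without uninjected replicates 2 and 3, highest without replicate 1), 9 to 133 and 7 to 112 moved together, 4 to 69 and 2 to 20 were called in both groups, 205 to 376 were higher and 177 to 400 lower with *bmp*, and 85 to 203 higher and 37 to 119 lower with *chd*. Counts stayed within 1.5 times under RLE size factors, a stricter filter, thinning to 8861308 counts and removal of mitochondrial and injected genes. The causes were not tested.

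Whether replicate numbers pair the libraries was not settled. Deviations of same-numbered libraries correlated between -0.01 and 0.07, and those of other pairs between -0.09 and 0.11. Of 18 comparisons, 11 were best with their own number, more than an even spread over the replicates of a group would give. With the replicate block, 134 genes were higher and 124 lower for the injected mean, 39 and 8 were called higher and lower in both groups and 98 were lower with *chd*.

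Of 4948 values of single genes and list medians under the alternatives, 4005 kept their side of the threshold or moved by less than the spread, 819 lost the call, 87 gained it, 37 moved and none reversed. Depth limits genes of a few CPM such as *snai1b*, *pkz* and *sox17*.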

Other observations

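Leaving out replicate 1 of the uninjected embryos added 105 genes to those that moved up together and 85 to those that moved down together, and 52 and 11 of these were called in both groups. These values are a description, since they were chosen by leaving out 1 of 3 libraries. *vdrb*, a vitamin D receptor gene, read 22.7, 9.04 and 13.5 CPM in uninjected embryos, 32.0, 23.2 and 25.6 CPM with *bmp* and 35.4, 26.1 and 21.7 CPM with *chd*. Replicates 2 and 3 lay below every injected library and replicate 1 among them, and without replicate 1 the log2 fold changes were 1.32 with *bmp* and 1.33 with *chd*. *btg1*, which encodes an antiproliferative protein and overlaps other rows in the tables, read 184, 87.8 and 96.4 CPM, 186, 172 and 171 CPM and 196, 161 and 115 CPM in the same order (0.94 with *bmp* and 0.71 with *chd*). *ndr1*, a Nodal ligand gene, read 18.5, 9.47 and 11.1 CPM, 21.3, 25.4 and 22.9 CPM and 13.8, 22.1 and 20.9 CPM (1.197 with *bmp* and 0.87 with *chd*). *anxa1c*, an annexin gene of the enveloping layer, read 63.7, 36.8 and 46.6 CPM, 66.7, 55.1 and 78.2 CPM and 107, 108 and 77.9 CPM (0.69 with *bmp* and 1.22 with *chd*). *vrtn* was among those that fell, at 69.1, 114 and 88.4 CPM, 54.1, 52.6 and 54.3 CPM and 43.6, 68.7 and 82.9 CPM (-0.94 with *bmp* and -0.68 with *chd*). In *vdrb*, *btg1*, *ndr1* and *anxa1c*, replicate 1 of the uninjected embryos was the highest of its group. Whether that library or the other 2 are nearer to the level of uninjected embryos was not tested.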
